A study of Mus musculus with 66 samples.

Results

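The respiratory chain genes of the mouse were followed through dextran sulfate sodium (DSS) colitis in 4 sections of the distal gut. They were taken by symbol from the deposited table: the Ndufa, Ndufb, Ndufc, Ndufs and Ndufv genes of complex I, Sdha to Sdhd of complex II, the Uqcr genes of complex III, the numbered Cox subunits of complex IV, the Atp5 genes of complex V, and the mitochondrially encoded mt-Nd, mt-Cytb, mt-Co and mt-Atp genes. This gave 95 of 30452 genes, 82 in the nucleus and 13 in the mitochondrial genome, after 6 pseudogene names ending in -ps were left out. The nuclear genes comprised 37 of complex I, 4 of complex II, 8 of complex III, 16 of complex IV and 17 of complex V. The mitochondrial genes comprised 7 of complex I, 1 of complex III, 3 of complex IV and 2 of complex V. The symbols leave out a few true subunits (Cox4i1, Cyc1, Ndufab1), which were followed in a separate list, and they take in Atp5s and Atp5sl, which are known as assembly or coupling proteins.

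Bulk mRNA was measured in 66 samples from 19 C57Bl/6 mice, with no genetic change named in the labels and bought at 6 weeks of age. Uninjured mice were killed on day 0 (4 mice), and the others on day 3, 6, 9, 14 or 20 of a course of 3% DSS that ran for 6 days from day 0 (3 mice per day). DSS strips and inflames the colonic epithelium. Mid-colon, rectum and anus were taken from every mouse, and the squamous neo-epithelium, a section that the labels place only after injury, from the 9 mice of days 9, 14 and 20. The muscle layer had been dissected off and discarded, per the labels. Every later day in a section was compared with the same 4 day 0 samples, so those comparisons share their controls. The mice of a given day are also the only mice of that day, so day and animal set cannot be told apart.

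The respiratory chain passes electrons from NADH (complex I) or succinate (complex II) through ubiquinone, complex III and cytochrome c to oxygen at complex IV, and the proton gradient this builds drives ATP synthesis by complex V. Its catalytic core is shared between the genomes: mitochondrial DNA encodes membrane subunits of every complex except II, and nuclear genes encode the rest together with all import and assembly factors. Colonocytes of the upper crypt are rich in mitochondria and burn butyrate, and several complex IV subunits exist as a broadly expressed form and a heart and skeletal muscle form.

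Promoters are shown for 4 nuclear members on which the results below turn: Sdhd and Cox6a1, which were lower in rectum on day 9 and in anus, Ndufa4, the member that rose in rectum on day 9, and Cox7a1, which had the largest fall there. NRF1, GABP (an ETS factor), YY1 and the oestrogen-related receptors (ERR) are the best known regulators of nuclear respiratory genes. RefSeq promoters on GRCm38.p6, the windows from 250 bases before to 50 bases after the start site, were found for 69 of the 82 nuclear members. Sdhd lies on the minus strand at chr9:50603800-50604099, Cox6a1 on the minus strand at chr5:115348909-115349208, Ndufa4 on the minus strand at chr6:11907401-11907700 and Cox7a1 on the plus strand at chr7:30183921-30184220. Capitals mark matches, on either strand, to the NRF1 letters (GCGCA, any base, then GCGC), the GABP letters CCGGAAG, the YY1 letters AAGATGGCG or the ERR half-site letters AAGGTCA.
Sdhd: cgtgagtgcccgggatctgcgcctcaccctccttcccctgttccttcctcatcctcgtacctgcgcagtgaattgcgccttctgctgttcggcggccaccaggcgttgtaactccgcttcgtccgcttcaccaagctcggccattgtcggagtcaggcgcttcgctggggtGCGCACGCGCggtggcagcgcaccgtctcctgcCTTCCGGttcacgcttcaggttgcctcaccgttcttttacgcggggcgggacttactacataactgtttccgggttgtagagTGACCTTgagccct
Cox6a1: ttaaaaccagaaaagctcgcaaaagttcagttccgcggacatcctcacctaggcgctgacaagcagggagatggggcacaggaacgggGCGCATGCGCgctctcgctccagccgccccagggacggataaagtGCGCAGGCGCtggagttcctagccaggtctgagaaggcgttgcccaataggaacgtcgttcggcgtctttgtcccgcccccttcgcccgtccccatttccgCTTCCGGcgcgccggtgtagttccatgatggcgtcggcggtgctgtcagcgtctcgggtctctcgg
Ndufa4: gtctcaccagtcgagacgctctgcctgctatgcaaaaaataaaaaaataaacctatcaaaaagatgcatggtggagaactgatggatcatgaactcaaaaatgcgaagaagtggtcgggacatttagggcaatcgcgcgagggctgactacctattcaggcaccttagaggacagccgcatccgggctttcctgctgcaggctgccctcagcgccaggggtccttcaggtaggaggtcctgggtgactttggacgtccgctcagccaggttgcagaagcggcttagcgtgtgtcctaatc
Cox7a1: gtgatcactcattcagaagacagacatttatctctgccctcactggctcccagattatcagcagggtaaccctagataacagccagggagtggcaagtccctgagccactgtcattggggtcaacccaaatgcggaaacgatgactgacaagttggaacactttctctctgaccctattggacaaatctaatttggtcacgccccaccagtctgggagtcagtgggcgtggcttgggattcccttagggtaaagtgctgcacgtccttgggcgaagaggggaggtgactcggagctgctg

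The Sdhd window held an NRF1 match at 79 bases before the start site, a GABP match at 46 bases before it and an ERR half-site 36 bases after it. Cox6a1 held NRF1 matches at 162 and 117 bases before the start and a GABP match at 16 bases before it. None of these letters occurred in the Ndufa4 or Cox7a1 windows shown. Entries of these genes elsewhere in the genome, if any, are not shown. A gene was counted when any of its promoters held a match. Of 69 members with a promoter, 17 (24.6%) held the NRF1 letters, against 5.19% of 27025 genes with a promoter. The GABP letters were held by 16 members (23.2%, against 9.93%), the YY1 letters by 8 (11.6%, against 1.64%) and the ERR half-site by 8 (11.6%, against 5.38%). A match describes letters in a window and shows no binding.

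Values are TPM (transcript abundance scaled to a library total of 1000000), a length-adjusted relative abundance, so genes can be compared with each other and every value is a share of its library. Read counts were not given and sequencing depth is therefore unknown. Log2 differences are on the log2(TPM + 1) scale, with standard errors (SE), and a gene was called when limma gave a Benjamini-Hochberg adjusted p under 0.05 over all genes tested. Background shares are the percent of all genes called in this main fit. They do not apply to counts from the alternative settings or to counts at an unadjusted p. Of the 95 members, 88 had at least 1 TPM in every sample and 3 never reached it. Between 11268 and 13789 genes reached 1 TPM in a sample. One mid-colon library of day 20 (mouse 18) stood apart in mitochondrial transcripts, with a share of 9.19% against 21.4% and 28.5% in the other 2 mice of its group, and the results that use it are given below with and without it.

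In the uninjured rectum the 13 mitochondrial genes held 18.0% ± 1.86 (SD, n = 4) of all TPM, and the 82 nuclear genes together 33186 TPM ± 1341 (SD, n = 4). The mitochondrial levels ran from 3425 TPM for mt-Nd5 to 38903 TPM for mt-Co1, the catalytic subunit of complex IV, with mt-Atp6 at 31776 TPM and mt-Cytb, the cytochrome b of complex III, at 11930 TPM. The most abundant nuclear members were small subunits of complex IV, Cox8a at 1515 TPM and Cox6a1 at 1188 TPM, beside the catalytic beta subunit of complex V, Atp5b, at 1153 TPM. The iron-sulfur and flavoprotein subunits of complex I were lower, with Ndufs1 at 81.2 TPM. mt-Atp8, whose reading frame overlaps that of mt-Atp6, was listed at 0 in every sample. Cox7b2 and Cox8c, testis forms, were listed at 0 in the day 0 rectum. How reads shared with pseudogenes, nuclear copies of mitochondrial DNA or an overlapping gene on the other strand (mt-Nd6 and mt-Nd5) were divided is not given in the sources used here, which leaves those levels uncertain.

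Before injury, mid-colon and rectum overlapped in both sums. The mitochondrial share was 17.9% ± 1.96 (SD, n = 4) in mid-colon, and the nuclear sum was 36098 TPM ± 1985 (SD, n = 4). No member differed between the sections by limma with Benjamini-Hochberg adjustment, where 1.79% of all genes did; 9 nuclear members had an unadjusted p under 0.05, and every other setting run also called 0. A p that misses the threshold does not show equal levels.

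**Figure D1:**
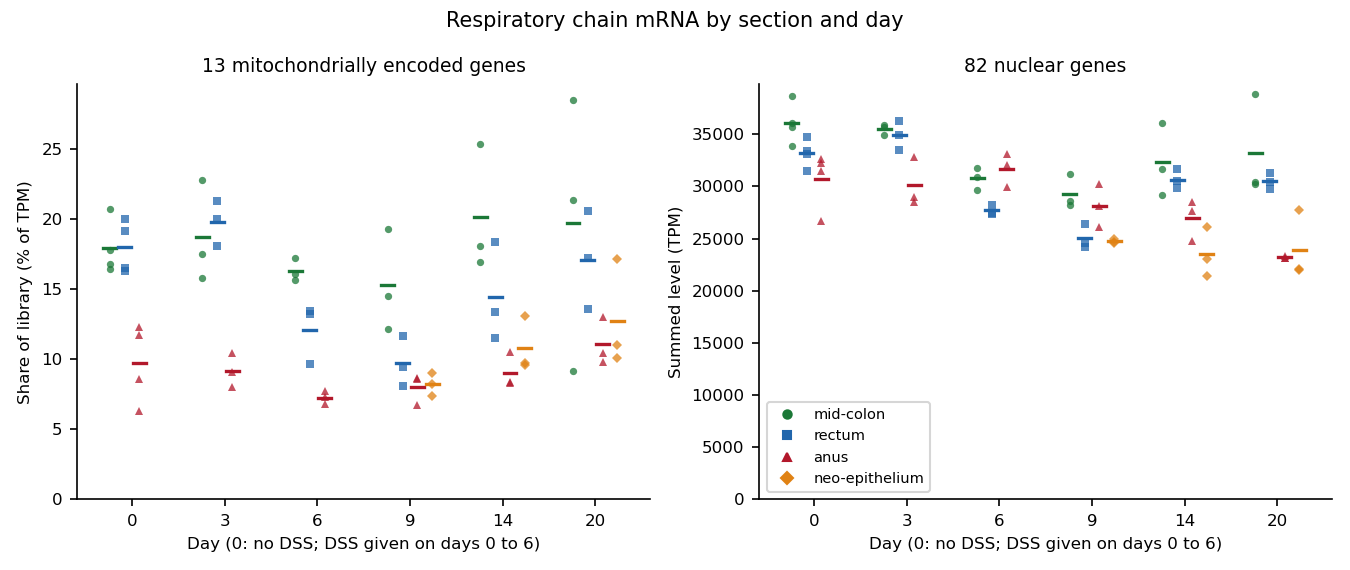
Share of each library held by the 13 mitochondrial genes (left, % of TPM) and summed level of the 82 nuclear genes (right, TPM) against day. Each point is 1 sample and each bar a group mean. Rectal samples of day 9 lie below all day 0 rectal samples in both panels, and the anus starts low in the left panel.

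On day 3 of DSS no member was called: 0 of 79 nuclear and 0 of 12 mitochondrial members tested passed limma with Benjamini-Hochberg adjustment in rectum, where 6.62% of all genes were called, and 0 did in mid-colon, where 0.375% were. In each section 5 nuclear and 0 mitochondrial members had an unadjusted p under 0.05. Without mouse 4 the rectum had 1 nuclear call, and with TMM scaling (a trimmed mean of M values) mid-colon had 1. The other 3 nuclear members and mt-Atp8 did not reach 1 TPM often enough in rectum to be tested. The rectal mitochondrial share was 19.8% on day 3.

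On day 6, at the end of DSS, most mitochondrial members were lower in rectum. The share of mitochondrial genes was 13.3%, 13.4% and 9.67% in the 3 mice, against 16.3%, 20.0%, 16.5% and 19.2% on day 0. The groups did not overlap. Of 12 mitochondrial members tested, 11 fell and 0 rose (background: 37.2% of all genes fell and 11.5% rose), with a median log2 difference of -0.61 against -0.27 over all genes. Of 79 nuclear members, 41 fell and 0 rose, with a median of -0.30, close to that of all genes. With TMM scaling, which moved the median of all genes from -0.27 to -0.04, 18 nuclear members fell and 7 rose with a median of -0.03, and 2 mitochondrial members fell with a median of -0.34. Without mouse 2, 4 or 10 the mitochondrial calls were 6, and no filter on low values gave 4.

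Within complex I, the core subunits encoded in the nucleus carry the redox centres. On day 6 all 7 of them (among them Ndufs1, Ndufs3, Ndufs7 and Ndufv1) fell, with a median of -0.54, and 11 of the 30 other nuclear complex I members fell, with a median of -0.22. Of all genes 37.2% fell and 11.5% rose on that day, so the other members stood near the background. Under TMM scaling 4 of the 7 fell, and all 7 estimates stayed below 0. Ndufs1, the largest iron-sulfur subunit, was at 82.8, 83.2, 77.7 and 81.0 TPM on day 0 and at 53.6, 49.2 and 40.8 TPM on day 6, a log2 difference of -0.76 ± 0.11 (SE; adjusted p = 0.00127, limma with Benjamini-Hochberg). Sdha, the flavoprotein of complex II, which also works in the citric acid cycle, fell from 203, 171, 187 and 180 TPM to 101, 104 and 79.0 TPM (-0.97 ± 0.12). For both genes every day 6 value lay under every day 0 value. Atp5a1, the alpha subunit of complex V, fell by 0.80 on the log2 scale, Atp5sl by 1.26, Cox7a1 by 0.89, the cytochrome bc1 core protein Uqcrc1 by 0.78 and the Rieske protein Uqcrfs1 by 0.73. The fall in mt-Nd3 was -1.62 ± 0.27, and its lowest day 0 value (mouse 1, 2890 TPM) was still above the highest day 6 value, 2164 TPM.

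By complex, the calls of day 6 in rectum were 18 of 37 nuclear members of complex I, 3 of 4 of complex II, 5 of 8 of complex III, 6 of 13 tested of complex IV and 9 of 17 of complex V, all of them lower. The background was 37.2% of all genes lower and 11.5% higher. Under TMM scaling these became 6 lower and 4 higher in complex I, 1 lower in complex II, 2 lower in complex III, 3 lower and 1 higher in complex IV, and 6 lower and 2 higher in complex V. The direction of the smaller nuclear changes on day 6 therefore turns with the scaling. The TMM fold of Sdha was still -0.71 (adjusted p = 0.0014, limma with Benjamini-Hochberg), and that of Ndufs3 -0.36 (adjusted p = 0.0173).

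On day 9, after DSS had ended, the respiratory chain genes reached their lowest summed levels in rectum, while the median of all genes lay above 0. Of 79 nuclear members, 43 fell and 1 rose (background: 20% of all genes fell and 33.5% rose). Their median was -0.37, against +0.13 over all genes. Of 12 mitochondrial members 10 fell and 0 rose, with a median of -0.92. With TMM scaling, which moved the median of all genes from +0.13 to -0.08, 59 nuclear members fell and 1 rose, and all 12 mitochondrial members fell. The share of all genes called under TMM scaling is not given here, so these counts cannot be set against a background. The mitochondrial share was 11.6%, 9.47% and 8.05% in the 3 mice and the nuclear sum 25042 TPM ± 1185 (SD, n = 3), both below every day 0 sample. Per gene, the day 9 values of 44 nuclear and 10 mitochondrial members lay wholly below day 0, and those of 1 nuclear member wholly above. The same count was not made over all genes, so these counts only describe the members.

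**Figure D2:**
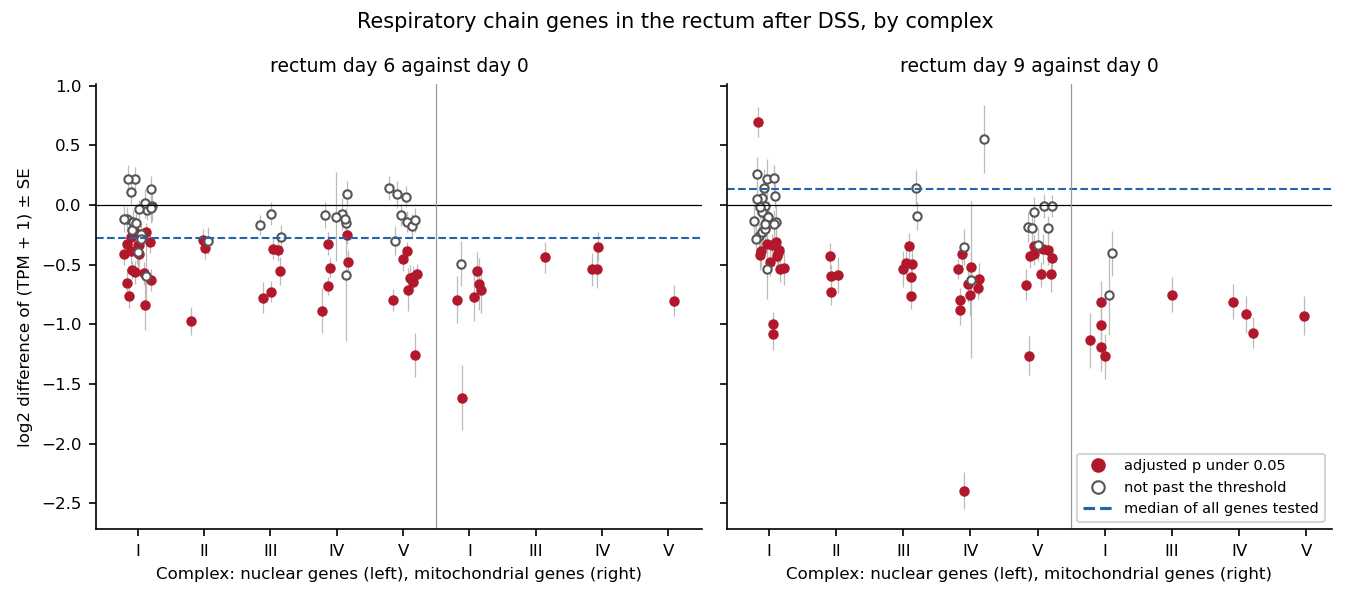
Log2 difference of (TPM + 1) against day 0 in rectum for each member tested, with SE bars, on day 6 (left) and day 9 (right), grouped by complex with nuclear genes left and mitochondrial genes right of the grey line. Filled points passed an adjusted p of 0.05, and the dashed line is the median of all genes, -0.27 on day 6 and 0.13 on day 9.

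The shares of members called on day 9 varied by complex (background: 20% of all genes fell and 33.5% rose). In complex IV, 10 of 13 nuclear members fell, with a median of -0.63. All 4 members of complex II fell (median -0.59), as did 6 of 8 of complex III (-0.49) and 10 of 17 of complex V (-0.37). In complex I, 13 of 37 fell and 1 rose, and the median was -0.19. Under TMM scaling, 25 members fell and 1 rose in complex I, all 4 fell in complex II, 6 in complex III, 11 in complex IV and 13 in complex V. These differences between complexes were not tested. Of the complex I core, 3 of 7 fell on day 9, with a median of -0.14, and of its other nuclear members 10 of 30 fell and 1 rose; under TMM scaling 5 of the 7 fell.

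mt-Co1 showed the mitochondrial pattern. Its levels were 36454, 41333, 36375 and 41452 TPM on day 0, and 28679, 31313 and 21219 TPM on day 6. On day 9 they were 21374, 18654 and 15868 TPM, a log2 difference from day 0 of -1.07 ± 0.13 (SE; adjusted p = 0.000188, limma with Benjamini-Hochberg). All day 6 and day 9 values lay under the day 0 range. mt-Nd6 (-1.27 ± 0.19) and mt-Nd5 (-1.19 ± 0.20), subunits of complex I, fell further on day 9. mt-Nd1 (-0.40 ± 0.19) and mt-Nd3 (-0.76 ± 0.33) did not pass, with adjusted p of 0.0982 and 0.0831 in limma with Benjamini-Hochberg. The mitochondrial genes share 1 genome and its promoters, so they are not independent of each other.

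Cox7a1, the muscle-type isoform of a complex IV subunit, had the largest fall of the members called on day 9. It was at 195, 176, 264 and 215 TPM in the rectum on day 0, at 85.1, 129 and 133 TPM on day 6 and at 42.7, 34.2 and 41.2 TPM on day 9. The day 9 difference was -2.39 ± 0.15 (SE; adjusted p = 7e-06, limma with Benjamini-Hochberg), and on day 20 the values were 137, 170 and 180 TPM. In mid-colon it went from 329, 260, 284 and 350 TPM to 52.1, 34.1 and 56.1 TPM on day 9 (-2.68 ± 0.19, adjusted p = 1.28e-05). Day 9 lay far below day 0 in both sections. Its paralogues moved less in rectum on day 9: the supercomplex factor Cox7a2l fell by 0.79, and Cox7a2, the broadly expressed isoform, was at 363, 498 and 350 TPM against 443 to 566 TPM on day 0 and was not called. On GRCm38 the gene lies at chr7:30184144-30186078 (plus strand). The other members on which the results turn are Ndufa4 at chr6:11900292-11907497 (minus strand), Sdha at chr13:74322254-74350280 (minus strand), Cox6a2 at chr7:128205435-128206387 (minus strand), Cox8b at chr7:140898945-140900446 (minus strand) and mt-Co1 at chrM:5328-6872 (plus strand), all annotated as protein coding.

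**Figure D3:**
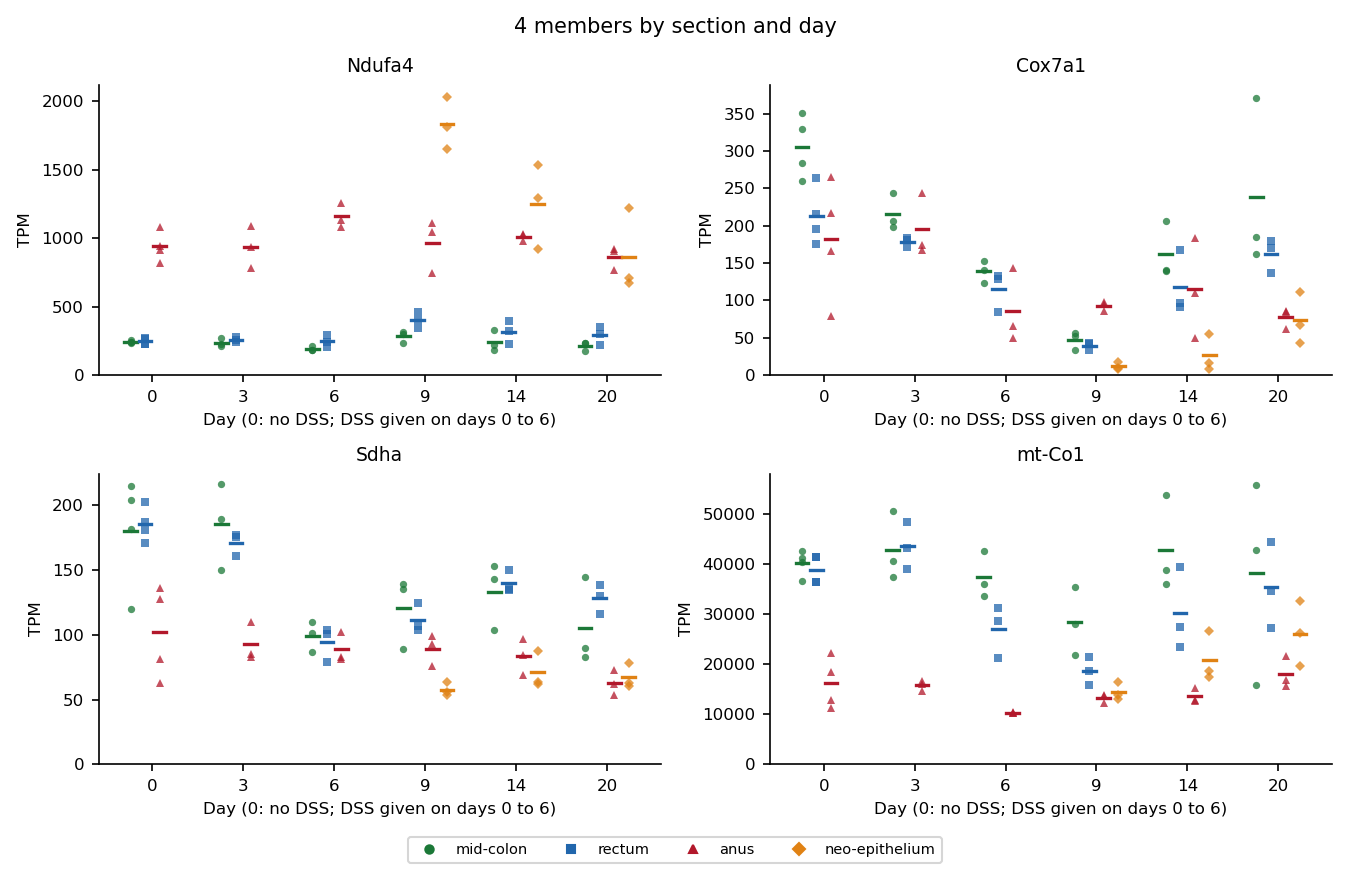
Levels (TPM) of Ndufa4, Cox7a1, Sdha and mt-Co1 against day in the 4 sections. Each point is 1 sample and each bar a group mean. Cox7a1 is lowest on day 9 in rectum and in mid-colon, and Ndufa4 is far higher in anus and neo-epithelium than in mid-colon or rectum at each day measured.

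Ndufa4 went the other way. It is named for complex I and counted there by its symbol, though it is known as a subunit of complex IV. In rectum it was at 269, 227, 228 and 265 TPM on day 0, at 245, 202 and 294 TPM on day 6 and at 405, 461 and 344 TPM on day 9. The day 9 group lay above every day 0 sample, by 0.70 ± 0.13 on the log2 scale (SE; adjusted p = 0.00174, limma with Benjamini-Hochberg). Under TMM scaling the rise was 0.45 (adjusted p = 0.0469). No other member rose in rectum on day 9.

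Behind Cox7a1, the largest nuclear falls of day 9 were in Atp5sl (-1.26 ± 0.16) and in accessory subunits of complex I. Ndufa6, an LYR-motif subunit, was at 723, 627, 579 and 707 TPM on day 0 and at 357, 327 and 257 TPM on day 9 (-1.08 ± 0.14). Ndufa1, a small membrane subunit encoded on the X chromosome, fell by 1.00 on the log2 scale. Both overlapped day 0 on day 6, with Ndufa6 at 557, 643 and 586 TPM and Ndufa1 at 255, 240 and 265 TPM. A comparison of day 9 with day 6, added after the values were seen, called them lower by 0.93 and 0.96, and Cox7a1 lower by 1.51. In that comparison 7 of 77 nuclear members were lower and 6 higher (background: 5.85% lower and 32.1% higher), the latter including Ndufa4 (0.71), Ndufs3 (0.69) and the c-ring gene Atp5g2 (0.63). The median of all genes stood at +0.37 there, and with TMM scaling (-0.07) 38 nuclear members were lower and 0 higher. Without mouse 8, 9 or 13 the nuclear calls were 7, 6 and 8, and without mouse 10 or 11 there were 4 mitochondrial calls each.

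Cell makeup moved with these results. On day 9 in rectum, the summed level of 10 neutrophil markers was 12909 to 14249 TPM, against 1.72 to 6.50 TPM on day 0. Of 10 colonocyte markers 9 were lower and 1 higher, with sums of 3743 to 4895 TPM against 11196 to 13509 TPM. On day 6 the neutrophil sum was 431 to 4009 TPM and the colonocyte sum 15545 to 16381 TPM, above its day 0 range, with 4 of the 10 colonocyte markers higher and 3 lower (median 0.21). The sum of 8 general leukocyte markers was 155 to 275 TPM on day 0, 682 to 1545 TPM on day 6 and 1445 to 1706 TPM on day 9. No neutrophil marker but S100a8 and S100a9 exceeded 0.672 TPM (Retnlg) in any day 0 rectal sample, and no colonocyte marker was at 0 on day 9. Their part in the results was not tested. In bulk samples, fewer cells of a type and less RNA per cell cannot be told apart. The smooth muscle markers, 0 of 8 of them called on day 9, summed to 254 to 1464 TPM against 1054 to 1264 TPM on day 0.

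Genes around the chain were taken from written lists, to be read against the share of all genes that moved in rectum, 37.2% lower and 11.5% higher on day 6 and 20% lower and 33.5% higher on day 9. All 13 citric acid cycle genes fell in rectum on day 6, with a median of -0.68 (11 fell under TMM scaling), among them Idh3g (-1.42), Idh3a (-1.28) and Fh1 (-1.19), which encode isocitrate dehydrogenase subunits and fumarase. On day 9, 8 of 13 fell, with a median of -0.41, including citrate synthase (Cs, -1.09) and the succinate-CoA ligase subunit Suclg2 (-0.82). Of 18 genes for general mitochondrial mass, import and chaperones, 15 fell and 1 rose on day 6 (median -0.61), and under TMM scaling 10 fell and 2 rose. On day 9, 11 rose and 5 fell (median +0.61), and under TMM scaling 9 rose and 7 fell. Their summed level was nevertheless lower on day 9, at 4207 to 4657 TPM against 5019 to 5204 TPM on day 0. On day 6 it averaged 3915 TPM. The matrix chaperone Hspd1 went from 56.7 TPM ± 2.89 (SD, n = 4) on day 0 to 31.3 TPM ± 7.85 on day 6 and 280.0 TPM ± 25.0 on day 9 (SD, n = 3 each), and was called on both days (-0.86 and 2.28).

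The counts of the biogenesis, assembly and glycolysis lists stand against the same background (20% of all genes lower and 33.5% higher on day 9), and nothing particular to these lists is read from them. Of 22 biogenesis regulators tested in rectum, 11 fell and 0 rose on day 6 (median -0.49; 7 fell and 1 rose under TMM scaling), and on day 9, 8 rose and 5 fell (median +0.31), which became 3 higher and 6 lower under TMM scaling. Ppargc1a, the coactivator that raises respiratory gene expression, was at 24.8 TPM ± 2.15 (SD, n = 4) on day 0, 13.5 TPM ± 2.70 on day 6 and 4.94 TPM ± 1.91 on day 9 (SD, n = 3 each), with log2 differences of -0.85 and -2.17. Esrra (-0.78), Esrrg (-0.94) and Ppargc1b (-1.14) fell on day 9, and Nrf1 (0.80), Tfam (0.56) and Pprc1 (1.23) rose. Of 41 assembly factors and subunits outside the symbol rule, 7 rose and 7 fell on day 9 (4 and 13 under TMM scaling), with the complex IV subunit Cox4i1 at -0.57. Of 16 glycolysis genes, 6 rose and 5 fell (3 and 5 under TMM scaling), with hexokinase Hk2 at 2.04 and the monocarboxylate exporter Slc16a3 at 1.91.

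Fewer members were called in mid-colon. On day 6, 12 of 78 nuclear members fell and 0 rose (background: 9.99% fell and 4.93% rose), led by Cox7a1 (-1.12), Uqcrfs1 (-0.85) and Sdha (-0.83), and 0 of 12 mitochondrial members did, with 2 at an unadjusted p under 0.05. TMM scaling gave 5 lower, rescaling without mitochondrial genes gave 21, and leaving out 1 mouse at a time gave 3, 3, 5, 31, 7, 2 and 2 calls without mouse 1, 2, 3, 4, 8, 9 and 10. On day 9, 23 of 78 fell and 2 rose (background: 17% fell and 26.5% rose), with a median of -0.23 against +0.09 over all genes. TMM scaling, which moved that median of all genes to -0.11, gave 39 lower and 0 higher. Without mouse 1 or mouse 12, 13 members were called. Complex IV had 8 of 12 lower (median -0.52). Ndufa1 (-1.38) and Cox6c (-0.92) fell beside Cox7a1, and Ndufb6 (0.41) and Atp5g2 (0.37) rose, neither being called under TMM scaling.

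Of the mitochondrial genes 3 of 12 were called in mid-colon on day 9 (background: 17% of all genes fell and 26.5% rose). The share on day 9 was 19.3%, 12.1% and 14.5%, against 16.8%, 17.8%, 16.4% and 20.8% on day 0, so the groups overlapped. mt-Co1 (-0.52), mt-Nd5 (-0.47) and mt-Nd6 (-0.45) were called lower. Without mouse 12 or 13 no mitochondrial call was left, without mouse 2 there was 1, and without mouse 11 there were 6. The response of rectum minus that of mid-colon on day 9 had a median of -0.72 over the 12 mitochondrial members, against -0.04 over all genes. None of the 12 was called (background: 0.703% of all genes were called lower and 5.84% higher). At an unadjusted p under 0.05 there were 10 of them. The share of all genes at that unadjusted threshold is not given, here or for day 6. On day 6 the same comparison of responses called 0 members and 0% of all genes, with 8 mitochondrial and 2 nuclear members at an unadjusted p under 0.05; with the mouse as a block, mt-Nd4l was called (-0.88, adjusted p = 0.0449). With the mouse as a block on day 9, which these sections of the same animals allow, 9 of the 12 were called, all with a larger fall in rectum. The shares of all genes given here belong to the unblocked fits, so the blocked calls have no background beside them. mt-Nd6 was then at -0.82 ± 0.14 (SE; adjusted p = 0.00578) and mt-Nd2 at -0.78 ± 0.13 (adjusted p = 0.00684, both limma with Benjamini-Hochberg). Without mouse 11 there were 5 mitochondrial and 3 nuclear calls in the unblocked fit, and without mouse 12 there were 2 mitochondrial ones.

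The neutrophil marker sum of mid-colon on day 9 was 506 to 2446 TPM, against 0.398 to 3.76 TPM on day 0. The colonocyte sum was 3823 to 5954 TPM against 13352 to 17193 TPM on day 0, with 9 of 10 markers lower. The smooth muscle sum was 609 to 905 TPM against 917 to 1309 TPM on day 0, with 3 of 8 markers lower and 0 higher. Of 6 stromal markers 4 were lower and 1 higher. The part of these markers in the mid-colon result was not tested. Ppargc1a fell by 2.19 on the log2 scale there. Of the 13 citric acid cycle genes, 2 fell and 0 rose (background: 17% of all genes fell and 26.5% rose). Nothing particular to that list is read from this count.

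On day 20 a few nuclear members were lower in rectum than on day 0. The rectal mitochondrial share was 13.6%, 17.2% and 20.6%, overlapping day 0, and 0 of 12 mitochondrial members were called or had an unadjusted p under 0.05. Of 79 nuclear members 9 were lower and 0 higher (background: 4.88% lower and 2.79% higher). They were Atp5d (-0.83), Uqcrc1 (-0.80), Sdhc (-0.77), Sdha (-0.53), Uqcrfs1 (-0.47), Ndufa1 (-0.48) and Atp5a1 (-0.41), with Ndufb8 (-0.57) and Ndufb4 (-0.42), named after their values were seen. Sdhc, a membrane anchor of complex II, was at 118, 89.2, 90.8 and 95.8 TPM on day 0 and at 64.0, 55.1 and 52.3 TPM on day 20, with no overlap. These calls rest on few animals: without mouse 1, 2 or 3 none was left, and without mouse 4, 17 or 18 there were 3, 4 and 3. No filter on low values gave 4.

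On day 14, in rectum, 7 of 79 nuclear members were lower (background: 9.51% lower and 6.31% higher), led by Cox7a1 (-0.88) and Uqcrc1 (-0.69), and 0 of 12 mitochondrial members were, with 4 at an unadjusted p under 0.05. Without mouse 14, whose mitochondrial share of 18.4% was the highest of its group, 11 nuclear members were lower, 3 higher and 9 mitochondrial members lower. Without mouse 1, 2, 3, 4 or 16 no nuclear call was left, and without mouse 15 there were 4. TMM scaling gave 3 lower and 1 higher, and rescaling without mitochondrial genes 15 lower and 1 higher. In mid-colon, Cox7a1 (-0.92) and Ndufb8 (-0.65) were lower on day 14 (background: 1.81% lower and 2.55% higher), and without mouse 4 there were 6 nuclear calls, without mouse 1, 2, 3, 15 or 16 none. On day 20 Uqcrfs1 (-1.08) and Sdhc (-1.05) were lower there (background: 0.883% lower and 0.677% higher). Without mouse 18, the library that stood apart, 1 member was called, without mouse 3 there was 1, without mouse 4 there were 5, and without mouse 1, 2 or 17 none.

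**Figure D4:**
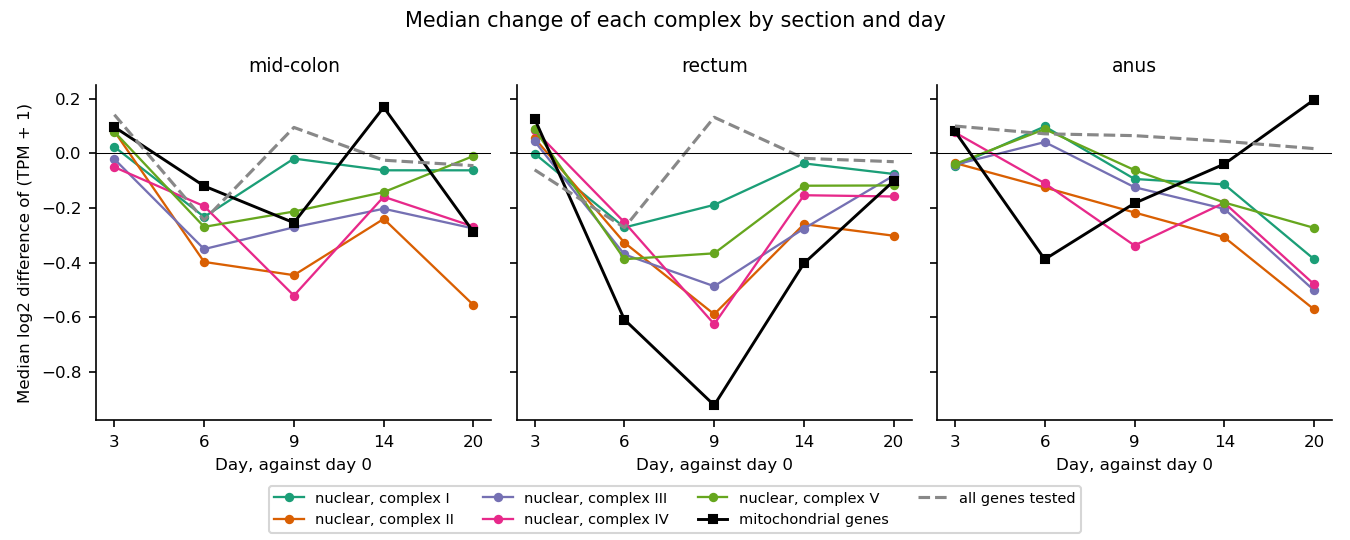
Median log2 difference of (TPM + 1) against day 0, by day, for the nuclear members of each complex, the mitochondrial members and all genes tested, in mid-colon, rectum and anus. In rectum the mitochondrial line is lowest on day 9, at -0.92, while all genes stand at 0.13.

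The anus differed from rectum in these genes before injury. Its mitochondrial share was 6.26%, 8.61%, 11.7% and 12.3%, below every rectal sample, and all 12 mitochondrial members tested were lower than in rectum (background: 34.4% lower and 25.9% higher), with a median of -0.97 against -0.15 over all genes. Without mouse 2, 3 of the 12 were called. The epithelium differed too: the colonocyte marker sum was 826 to 2568 TPM in anus against 11196 to 13509 TPM in rectum, and the squamous marker sum 11925 to 20166 TPM against 100.1 to 276 TPM. Their part in the result was not tested. mt-Co1 averaged 38903 TPM ± 2875 in rectum and 16190 TPM ± 5104 in anus (SD, n = 4 each). Of 80 nuclear members, 17 were higher and 22 lower; Cox8b, Cox6a2 and Ndufa4l2, among the higher ones, were tested only because of their anal levels, since too few rectal samples reached 1 TPM, and their values below are a description. That balance turned with the scaling: TMM gave 25 higher and 19 lower, with the median of all genes at -0.01, and rescaling without mitochondrial genes gave 10 higher and 30 lower. Without mouse 1 the split was 19 higher and 14 lower, and without mouse 2 it was 8 and 13. With the mouse as a block, 13 were higher and 18 lower.

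The muscle forms of the complex IV isoform pairs were at high levels in anus. Cox8b, the muscle-type partner of Cox8a, was at 36.9, 194, 395 and 285 TPM in the day 0 anus and at 4.68, 1.12, 0 and 2.16 TPM in rectum. Cox6a2, the muscle-type partner of Cox6a1, was at 16.9, 49.6, 163 and 86.7 TPM in anus and under 1 TPM in every day 0 rectal sample. The broad forms were lower in anus, Cox6a1 by -1.12 ± 0.16 and Cox8a by -1.06 ± 0.15. No anal sample overlapped the rectal range in any of these 4 genes. Within each anal sample of day 0 the muscle form stayed below its broad partner, with Cox8a at 604, 783, 633 and 920 TPM and Cox6a1 at 454, 629, 460 and 669 TPM.

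**Figure D5:**
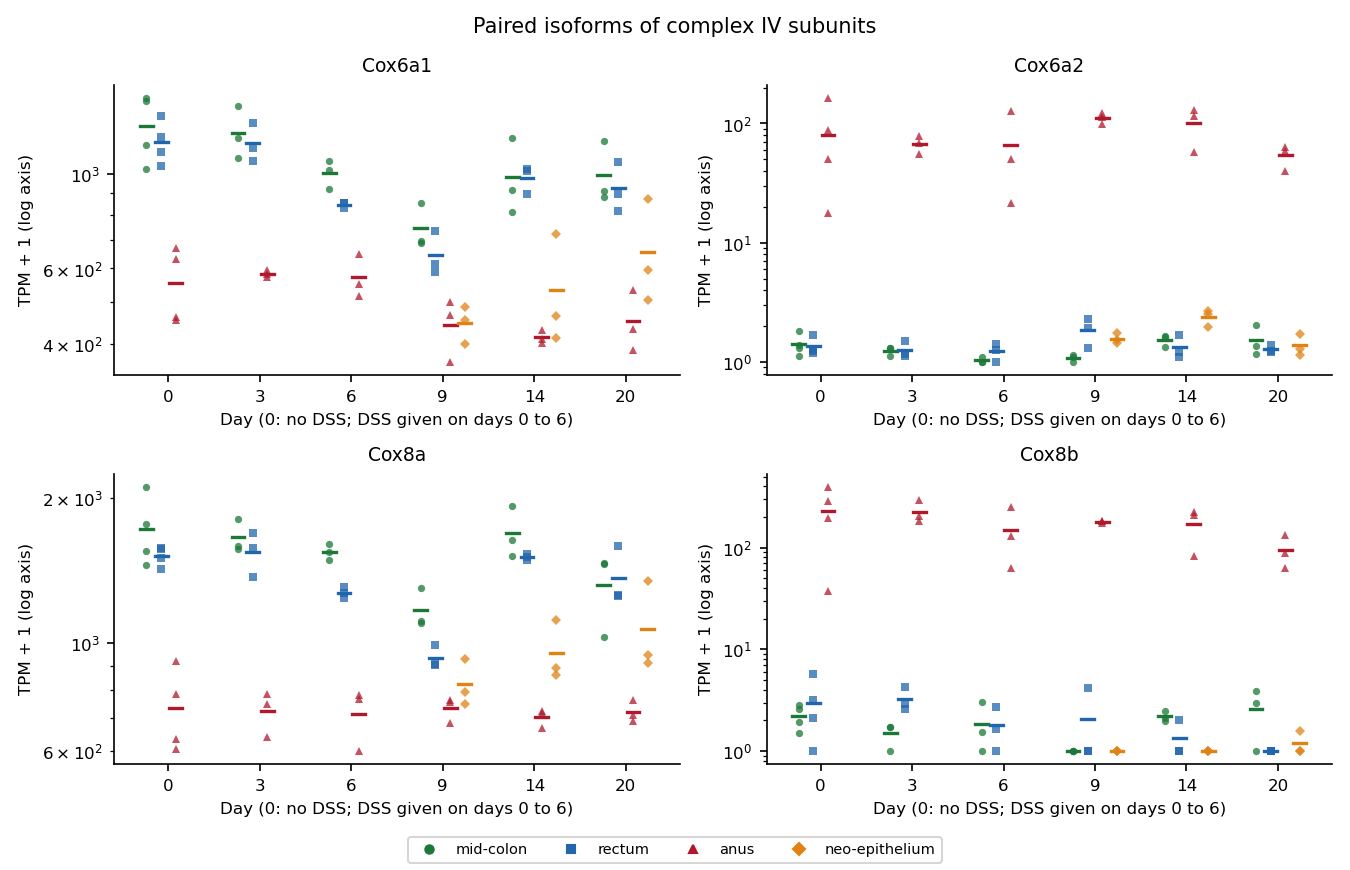
Levels of the complex IV isoform pairs Cox6a1 with Cox6a2 and Cox8a with Cox8b, as TPM + 1 on a log axis, against day in the 4 sections. Each point is 1 sample and each bar a group mean. Cox6a2 and Cox8b are high in anus alone, at each day, and Cox8b is listed at 0 in 8 of 9 neo-epithelium samples.

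In the day 0 anus, the skeletal muscle marker sum and the muscle isoforms followed the same order of mice. The summed level of 10 skeletal muscle markers was 1816, 4489, 19748 and 8865 TPM in the anus of mice 1 to 4 on day 0, against 12.9 to 39.2 TPM in rectum, where the mean of the fast myosin Myh4 was near 0 and that of Acta1 12.6 TPM. Cox8b and Cox6a2 were lowest in mouse 1 and highest in mouse 3, as was that sum. Cox7a1 followed the same order in anus, at 78.8, 166, 266 and 217 TPM, and was not called against rectum (-0.34, adjusted p = 0.386, limma with Benjamini-Hochberg). Cox8b, Cox6a2 and Cox7a1 all kept the order of the sum on day 6, but not all of them did on days 3, 9, 14 and 20. On day 3 the sum was highest in mouse 7 (8381 TPM against 7473 TPM in mouse 5). Cox8b was higher in mouse 5 that day, at 292 TPM against 203 TPM. The part of the muscle genes in these results was not tested. The brown fat marker Ucp1 did not exceed 0.0824 TPM in the day 0 anus, while Cidea was at 18.8 TPM ± 10.0 (SD, n = 4). All 5 brown fat markers, Cox8b among them, summed to 51.6 to 566 TPM there, against 0.160 to 4.79 TPM in rectum. Their part in these results was not tested.

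Ndufa4 and its paralogue Ndufa4l2 were also at higher levels in anus. Ndufa4 was at 944, 909, 1082 and 820 TPM in anus against 227 to 269 TPM in rectum (1.92 ± 0.12, adjusted p = 1.11e-06, limma with Benjamini-Hochberg). Ndufa4l2, a hypoxia-induced form, was at 127, 144, 146 and 108 TPM against 0.717 to 2.67 TPM. The groups were wide apart for both. The complex I core gene Ndufs3 was higher by 1.06. Against these, Uqcrc2, a core protein of complex III, was at 175, 138, 234 and 328 TPM in anus and 462 to 548 TPM in rectum (-1.29 ± 0.23), and all 4 complex II members were lower, with Sdhd, a membrane anchor, at -1.14 ± 0.17. With the mouse as a block 3 of the 4 were called, as Sdhc was not (adjusted p = 0.0657, limma with Benjamini-Hochberg). Of 13 citric acid cycle genes 10 were lower and 0 higher (background: 34.4% lower and 25.9% higher).

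Few members were called in anus after DSS. On days 3, 9 and 14, limma with Benjamini-Hochberg adjustment called 0 members (background: 0.044%, 5.09% and 4.27% called in either direction). At an unadjusted p under 0.05 there were 0, 8 and 8 nuclear members, and the share of all genes at that threshold is not given. Without mouse 1, 2 nuclear members were called on day 9, and TMM scaling gave 1 on day 14. On day 6 Uqcrq (0.59) and Ndufs8 (0.49) were higher and Ndufa6 (-0.58) was lower (background: 8.64% higher and 6.37% lower); with TMM scaling, or rescaled without mitochondrial genes, 1 was lower and 0 higher, and without mouse 1, 2 nuclear and 2 mitochondrial members were lower. Without mouse 2, 3, 8, 9 or 10 none was called. On day 20 Ndufa2 (-1.01), Cox7a2 (-0.88) and Atp5j2 (-0.66) were lower and mt-Nd3 (1.32) was higher (background: 0.371% lower and 1.09% higher). Cox7a2 was at 440, 424, 386 and 439 TPM on day 0 and 230, 223 and 234 TPM on day 20, without overlap. Without mouse 1 there were 11 nuclear calls, without mouse 4 or 17 there was 1, and without mouse 2, 3, 18 or 19 none. TMM scaling gave 6 nuclear and 0 mitochondrial calls. Without mouse 1 there was 1 mitochondrial call, and without each of the other mice 0. The nuclear sum in anus was 30749 TPM ± 2764 (SD, n = 4) on day 0 and 23187 TPM ± 96.1 (SD, n = 3) on day 20.

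The nuclear sum of the squamous neo-epithelium was 24717 TPM on day 9, 23489 TPM on day 14 and 23922 TPM on day 20. In rectum it was 25042, 30658 and 30489 TPM on the same days, so on day 9 neo-epithelium stood at 98.7% of rectum. Compared with rectum of the same 3 days, with day as a covariate, 42 of 79 nuclear members were lower and 2 higher (background: 21.3% lower and 20.7% higher), with a median of -0.28 against 0.00 over all genes, and TMM scaling gave 35 and 2. The 4 complex II members were all lower, 8 of 13 of complex IV, 16 of complex I, 5 of complex III and 9 of complex V. Cox7a1 (-1.79 ± 0.30), Sdha (-0.95 ± 0.08) and Ndufa6 (-0.88 ± 0.14) led. The 2 that rose were Ndufa4 and Ndufa4l2. Ndufa4l2 was at 3.10 to 42.8 TPM in the neo-epithelium samples, enough by themselves to pass the filter, so its difference from rectum is only a description. Of 12 mitochondrial members 5 were lower; TMM scaling gave 3, and so did leaving out mouse 18 or mouse 19. The 2 sections differed in cell makeup. The colonocyte marker sum averaged 142, 1484 and 3688 TPM in neo-epithelium on days 9, 14 and 20, against 4408, 6516 and 8160 TPM in rectum. The squamous marker sum averaged 32477, 18827 and 22678 TPM, against 531, 744 and 459 TPM. Of 8 smooth muscle markers 6 were lower in neo-epithelium, and of 6 stromal markers 5 were higher. Their part in the result was not tested.

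Compared with anus, 31 of 80 nuclear members were lower and 8 higher in neo-epithelium (background: 20.4% lower and 38.1% higher), with a median of -0.16 against +0.17 over all genes. TMM scaling, which moved the median of all genes from 0.17 to 0.01, gave 51 lower and 2 higher, with the 3 mitochondrial members that were higher (mt-Co1, mt-Nd1 and mt-Nd5, 0.42 to 0.43) not called and 1 called lower. Cox8b was listed at 0 in 8 of 9 neo-epithelium samples and at 0.584 TPM in the day 20 sample of mouse 17, and Cox6a2 did not exceed 1.68 TPM in any; both were tested against anus only through their anal levels. Cox6a2 was not called against rectum (0.25, adjusted p = 0.246, limma with Benjamini-Hochberg). The skeletal muscle markers summed to 5.50 TPM on average in neo-epithelium on day 9, against 8722 TPM in anus. The neutrophil sum averaged 15663, 3240 and 2689 TPM in neo-epithelium on days 9, 14 and 20, against 1808, 2671 and 1526 TPM in anus. The colonocyte sum averaged 59.5, 184 and 588 TPM in anus on those days, below neo-epithelium, and the leukocyte sum 399, 676 and 552 TPM against 1369, 911 and 583 TPM in neo-epithelium. Of 6 stromal markers 4 were lower in neo-epithelium. Their part in the result was not tested. Ndufa4l2 was between the sections, lower than anus (-2.81) and higher than rectum (2.60). Uqcrc2 (0.71) and Sdhd (0.67) were higher than in anus and kept that call under TMM scaling (0.50 and 0.47).

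Ndufa4 was highest of all in the early neo-epithelium. It was at 1653, 2027 and 1808 TPM on day 9, at 920, 1531 and 1294 TPM on day 14 and at 707, 1218 and 669 TPM on day 20, against 202 to 461 TPM in the 19 rectal samples. The 9 samples lay above every rectal sample (1.90 ± 0.16, adjusted p = 7.36e-08, limma with Benjamini-Hochberg). Against anus the difference was 0.39 (adjusted p = 0.0447, limma with Benjamini-Hochberg), and the adjusted p was 0.0547 with the mouse as a block and 0.337 with TMM scaling, neither under 0.05. Between day 9 and day 20 it fell by 1.13 on the log2 scale (SE 0.25, adjusted p = 0.0196), and the groups did not overlap.

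Cox7a1 took the reverse course there. It was at 9.87, 8.56 and 17.4 TPM on day 9 and at 67.1, 43.7 and 111 TPM on day 20, a rise of 2.49 ± 0.39 (SE; adjusted p = 0.00733, limma with Benjamini-Hochberg). In all, 3 nuclear members rose and 3 fell between these days (background: 10.1% rose and 16.1% fell), the others being Uqcrb (0.60) and Ndufa1 (0.46) upward and Ndufs3 (-0.71) and Sdhc (-0.54) downward. With TMM scaling 6 rose and 2 fell, and rescaled without mitochondrial genes 4 rose and 2 fell. Without mouse 12, 13, 17 or 19 the nuclear calls were 1, 2, 3 and 13. mt-Co1 (0.83) and mt-Nd5 (0.85) rose; without mouse 11, 12 or 13 no mitochondrial call was left, without mouse 19 there was 1 and without mouse 18 there were 4, as with TMM scaling. The mitochondrial share was 9.04%, 8.22% and 7.35% on day 9 and 17.2%, 10.1% and 11.0% on day 20. Over the same days the colonocyte marker sum went from 36.5 to 295 TPM on day 9 to 2221 to 4596 TPM on day 20. The neutrophil sum was 7572 to 19824 TPM on day 9 and 560 to 6417 TPM on day 20, with 3 of 10 markers lower. Their part in these changes was not tested.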

How the data were processed

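Bulk RNA was sequenced as stranded single-end 75 bp reads, per the labels' protocols, and the submitters' processing notes name CASAVA, kallisto and mm10 with no versions or roles. The deposited table held TPM, a transcript-level value other than a count, in 126860 rows, of which 37344 had no values. Columns summed to 1027330 to 1062209 until 1318 repeats of a transcript were dropped, and to 1000000 within 0.224 afterwards. TPM was summed per gene (30452 genes). No read counts were used, so depth is unknown and no counting interval is given. All 95 members were located in GENCODE vM21 (GRCm38, equivalent to mm10).

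limma 3.58.1 in R 4.3.3 was fitted with a mean-variance trend to log2(TPM + 1) for genes that reached 1 TPM in a number of samples equal to the smallest group, with Benjamini-Hochberg adjustment over all genes at 0.05, for 22 planned comparisons and 1 added after the values were seen. Neo-epithelium was compared over shared days with day as covariate. Alternatives were TMM factors (trimming 30% of ratios and 5% of levels), rescaling without mitochondrially encoded genes, a pseudocount of 0.1, no filter, a 5 TPM filter, leaving out each mouse, and the mouse as a block. The scripts were tested on simulated data.

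Per the labels, each mouse gave several sections, so the mouse pairs them. Deviations of paired sections correlated at a mean r of 0.0516 between anus and rectum, 0.133 between rectum and mid-colon, 0.258 between neo-epithelium and rectum and 0.157 between neo-epithelium and anus. The labels give no sequencing batch. Figures were drawn with matplotlib 3.10.9, and sums used python 3.11.15, numpy 2.4.6 and pandas 2.3.3.

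Genes named are the 13 mitochondrial members, the isoform pairs, the core subunits, and for each comparison the 3 called nuclear members that rose most and the 3 that fell most, plus genes of the pathway and marker lists. Some single genes of these lists are not reported here. Members and lists were chosen with earlier results of these data known.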

Additional observations from a re-analysis of the deposited data

Results flagged for a closer look

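Of 150 groups of 4 day 0 samples examined, 8 held a sample whose gap to the nearest other sample took up most of the group's range, past Dixon's critical value; chance gives this in about 1 in 20 groups. In rectum, mouse 1 had 2890 TPM of mt-Nd3 against 5429 to 5567 TPM in the other mice, and mouse 4 had 114 TPM of Ndufv1, the NADH-binding subunit, against 127 to 129 TPM. In anus, mouse 1 had 9361 TPM of mt-Co2 against 20508 to 22265 TPM, and 301 TPM of Cox7a2l against 357 to 366 TPM. In mid-colon, mouse 4 stood out in 3 genes, with Uqcrc1 at 73.5 TPM against 159 to 163 TPM, Ndufa1 at 309 TPM against 281 to 286 TPM and Ndufa6 at 861 TPM against 656 to 689 TPM. Mouse 2 had 101 TPM of Ndufs1 in mid-colon against 80.2 to 83.1 TPM.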

How the results depend on the processing

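Counts below are of members called, nuclear unless said otherwise. The share of all genes called under each alternative is not given beside them. TMM scaling gave 1 in mid-colon on day 3, 5 on day 6 and 39 on day 9. It gave 25 in rectum on day 6 with 2 mitochondrial, and 4 on day 14. It gave 1 in anus on day 6 (reversed in balance), 1 on day 14 and 6 on day 20 with 0 mitochondrial. It gave 44 for anus against rectum (reversed in balance) and 3 mitochondrial for neo-epithelium against rectum. It gave 1 mitochondrial against anus (reversed) and 4 mitochondrial in neo-epithelium from day 9 to 20. It gave 2 for the response difference of day 9, and 38 with 8 mitochondrial for rectum day 9 against day 6. Rescaling without mitochondrial genes gave 21 and 1 in mid-colon on days 6 and 20, 16 in rectum on day 14, 1 in anus on day 6 (reversed) and 3 for the response difference of day 9. No filter gave 4, 0 and 1 in mid-colon on days 6, 14 and 20, with 0 mitochondrial on day 9, and in rectum 4 mitochondrial on day 6, then 2 and 4 on days 14 and 20. It gave 1 and 0 mitochondrial in anus on day 20, 6 mitochondrial for anus against rectum, 1 mitochondrial for neo-epithelium against rectum and 0 mitochondrial from day 9 to 20. A 5 TPM filter gave 1 mitochondrial in rectum on day 14, and 1 and 6 in anus on days 14 and 20; the 0.1 pseudocount gave 1 in anus on day 14. Rescaled to the TPM of genes outside the mitochondrial genome, the nuclear sum was 77.95%, 68.56% and 88.63% of day 0 in rectum on days 6, 9 and 14, 76.36% in anus on day 20, and 97.05% of rectum in neo-epithelium on day 9. With TMM scaling Cox8a in rectum on day 6 turned to 0.012 (adjusted p = 0.905, limma). The cause was not tested.

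Leaving out each mouse in turn gave, in mid-colon, 2 to 31 calls on day 6 (mitochondrial 0 to 1), 13 to 27 on day 9 (0 to 6), 0 to 6 on day 14 and 0 to 5 on day 20. In rectum it gave 0 to 1 on day 3, 34 to 40 on day 6 (6 to 12), 35 to 46 on day 9 (10 to 11), 0 to 14 on day 14 (0 to 9) and 0 to 13 on day 20. In anus it gave 0 to 2 on day 6 (0 to 2; 2 without replicate 1, reversed), 0 to 2 on day 9 and 0 to 11 on day 20 (0 to 1). It gave 21 to 38 for anus against rectum (3 to 12; 33 without replicate 1, reversed), 39 to 45 for neo-epithelium against rectum (3 to 6), 32 to 48 against anus (2 to 4), 1 to 13 from day 9 to 20 (0 to 4), 0 to 3 for the response difference of day 9 (0 to 5), and 6 to 13 for rectum day 9 against day 6 (0 to 4).

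With the mouse as a replicate block, 1 mitochondrial member was called for the response difference of day 6 and 9 for that of day 9. Anus against rectum lost 8 calls (Ndufb2, Atp5a1, Ndufc2, Ndufb11, Ndufa3, Ndufb10, Sdhc and Uqcr10). Neo-epithelium against rectum lost Ndufb8 and Atp5b and gained mt-Nd4, and against anus it lost Atp5b and Ndufa4 and gained Ndufa11 and mt-Nd4l. The pairing changed no other call. Single-gene calls of named genes were followed in part of the comparisons. These were rectum on days 6, 9 and 20 and mid-colon on day 9 against day 0, rectum day 9 against day 6, anus against rectum, and the neo-epithelium comparisons. They numbered 193, and all kept their side of the threshold with a pseudocount of 0.1 or a 5 TPM filter, 191 with rescaling, 161 with no filter and 156 with TMM scaling. With 1 mouse left out at a time, 194 of 1325 refits lost the call. Other comparisons were not in this count. TPM carries no depth, so how precisely the low members (Cox6a2, Cox8b, Cox6b2) were measured is unknown.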

Other observations

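AA467197 (also known as Nmes1), a paralogue of Ndufa4 that the symbols of the chain do not take in, was looked at after the Ndufa4 values had been seen. On day 0 it was at 1858 TPM ± 203 in mid-colon, 1853 TPM ± 183 in rectum and 796 TPM ± 189 in anus (SD, n = 4 each). In rectum on day 6 it was at 3026 TPM ± 158 (SD, n = 3). In neo-epithelium it was at 545 TPM ± 216 on day 9 (SD, n = 3), when Ndufa4 was at 1829 TPM ± 188, and averaged 1595 TPM on day 14 and 1603 TPM on day 20. These values were not tested.

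The ratio of the mitochondrial to the nuclear sum was 5.45 on average in rectum on day 0, 4.37 on day 6, 3.89 on day 9 and 5.60 on day 20. In anus on day 0 it was 3.12, and in neo-epithelium it was 3.32, 4.57 and 5.44 on days 9, 14 and 20. Complex IV was the nuclear complex with the largest difference between day 6 and day 9 in rectum, its summed level going from 9966 TPM on day 0 to 8400 TPM on day 6 and 6377 TPM on day 9, whereas complex I went from 8217 to 7121 and 6949 TPM. The 10 most abundant genes of a library held 25.2% of its TPM on average in rectum on day 0 and 16.1% on day 9.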
